A study of Mus musculus with 20 samples.

Results

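The genes described here are 10 transcripts of the interleukin-6 (IL-6) branch of hepatic inflammation signaling, namely the receptors Il6ra, Il6st, Osmr, Lifr and Il1r1, the transcription factor Stat3 with its inhibitor Socs3, and the C/EBP factors Cebpa, Cebpb and Cebpd. They were taken by gene symbol as 10 of the 48440 genes in a raw count table of mouse liver RNA. The livers came from 20 female wild-type C57BL/6 mice that entered the experiment at 8 weeks of age, and each library is 1 liver of 1 mouse. For 5 weeks the mice drank corticosterone (CORT, the main glucocorticoid of rodents) at 100 μg per ml or vehicle, and were passively immunized by 2 injections a week of 5 mg per kg of either a neutralizing monoclonal antibody against acyl coenzyme A binding protein (αACBP) or an IgG2a isotype control. The 4 groups had 5 mice each, with the isotype control in Isotype + Vehicle and Isotype + CORT, and the neutralizing antibody in αACBP + Vehicle and in αACBP + CORT. CORT given in this way models glucocorticoid excess in whole animals and acts on every tissue, and the antibody neutralizes circulating protein rather than deleting the gene in the liver. The comparisons below address whether these regulators changed with CORT, with the antibody, and with their combination.

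IL-6 binds the chain encoded by Il6ra and then pairs with gp130, the product of Il6st, which is also the shared signaling chain for leukemia inhibitory factor (through Lifr), oncostatin M (through Osmr), interleukin-11 and cardiotrophins. Activated gp130 recruits Janus kinases that phosphorylate STAT3, and STAT3 drives acute-phase genes together with its own feedback inhibitor Socs3, which binds gp130 and shuts the pathway down. Interleukin-1 signals through Il1r1 and NF-κB and acts with IL-6 on the class of acute-phase genes that includes the serum amyloids. C/EBPα keeps the metabolic program of the resting hepatocyte, while C/EBPβ and C/EBPδ are the family members that are induced in the acute-phase response. Glucocorticoids are long known to potentiate IL-6 action on hepatocytes.

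The 250 bases upstream of the annotated start of Socs3 and Cebpb, the genes that separated most clearly by the test below, are given from RefSeq on GRCm38.p6, 5′ to 3′ on the coding strand, with capitals marking matches to the STAT motif TTCNNNGAA, which reads the same on either strand, or the C/EBP motif TTGCNNAA, which was searched on both strands. The upstream bases of Il1r1 at the first of its listed starts are shown because they hold the only C/EBP match among the members.
Socs3, chr11:117969367-117969616, minus strand: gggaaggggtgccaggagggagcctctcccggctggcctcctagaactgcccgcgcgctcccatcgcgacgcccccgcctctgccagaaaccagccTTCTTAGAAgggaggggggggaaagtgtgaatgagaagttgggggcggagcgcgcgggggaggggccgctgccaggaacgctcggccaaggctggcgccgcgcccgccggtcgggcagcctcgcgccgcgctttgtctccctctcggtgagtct
Cebpb, chr2:167688665-167688914, plus strand: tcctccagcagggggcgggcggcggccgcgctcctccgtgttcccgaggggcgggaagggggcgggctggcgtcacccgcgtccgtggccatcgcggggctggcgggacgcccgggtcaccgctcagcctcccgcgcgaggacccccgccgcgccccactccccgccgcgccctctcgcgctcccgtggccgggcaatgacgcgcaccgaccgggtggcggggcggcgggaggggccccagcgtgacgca
Il1r1, chr1:40224830-40225079, plus strand: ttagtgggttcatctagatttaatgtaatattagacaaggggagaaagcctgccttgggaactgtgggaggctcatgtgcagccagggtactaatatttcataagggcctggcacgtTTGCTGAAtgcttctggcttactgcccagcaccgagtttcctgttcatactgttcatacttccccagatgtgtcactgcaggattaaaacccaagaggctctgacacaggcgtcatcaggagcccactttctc

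Among the 9 members with a listed promoter (Cebpd has no entry in the table), the STAT motif was found for Socs3 alone, at −154 to −146 from the start, while 7.179% of 27025 mouse promoters of this length hold it. The C/EBP motif was found for Il1r1 alone, at −133 to −126, against 9.554% of all promoters. No member held the palindromic glucocorticoid receptor motif (GNACA and TGTNC with 3 free bases between), which 0.381% of all promoters hold. A loose NF-κB motif (GGG and CC with 5 free bases between), searched on both strands, was found for 6 members at the first listed start of each gene and in 45.369% of all promoters counted in the same way, and for Il1r1 at its second listed start only. The search also found TATAAA for Cebpa, against 12.966%. These matches describe letters in this window and nothing of binding in these livers.

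The members span a wide range of abundance, and the order below is of levels divided by the exon bases of each gene (GENCODE M39), in CPM (counts scaled to a common library size) per kilobase over the 20 livers. Cebpa was the highest at 127 ± 23.9 (SD, n = 20), and Cebpb followed at 103 ± 56.4, with ranges over livers that overlapped. Lifr, at 15.4 ± 5.50, was the most abundant receptor per length. Stat3 at 9.21 ± 2.08, Il1r1 at 8.97 ± 3.56, Socs3 at 6.5 ± 2.11 and Il6st at 6.03 ± 0.755 lay close together, and each overlapped its neighbor in this order. Il6ra, at 3.65 ± 1.35, was the lower of the IL-6 receptor chains, and Cebpd at 2.36 ± 0.878 and Osmr at 0.662 ± 0.242 were lowest. In the ratio of highest to lowest liver, on the CPM scale, the members differed as well. It was 5.91 for Cebpb, 4.75 for Osmr and 3.93 for Il1r1, but 1.92 for Cebpa and 1.47 for Il6st, the steadiest of the members.

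**Figure D1:**
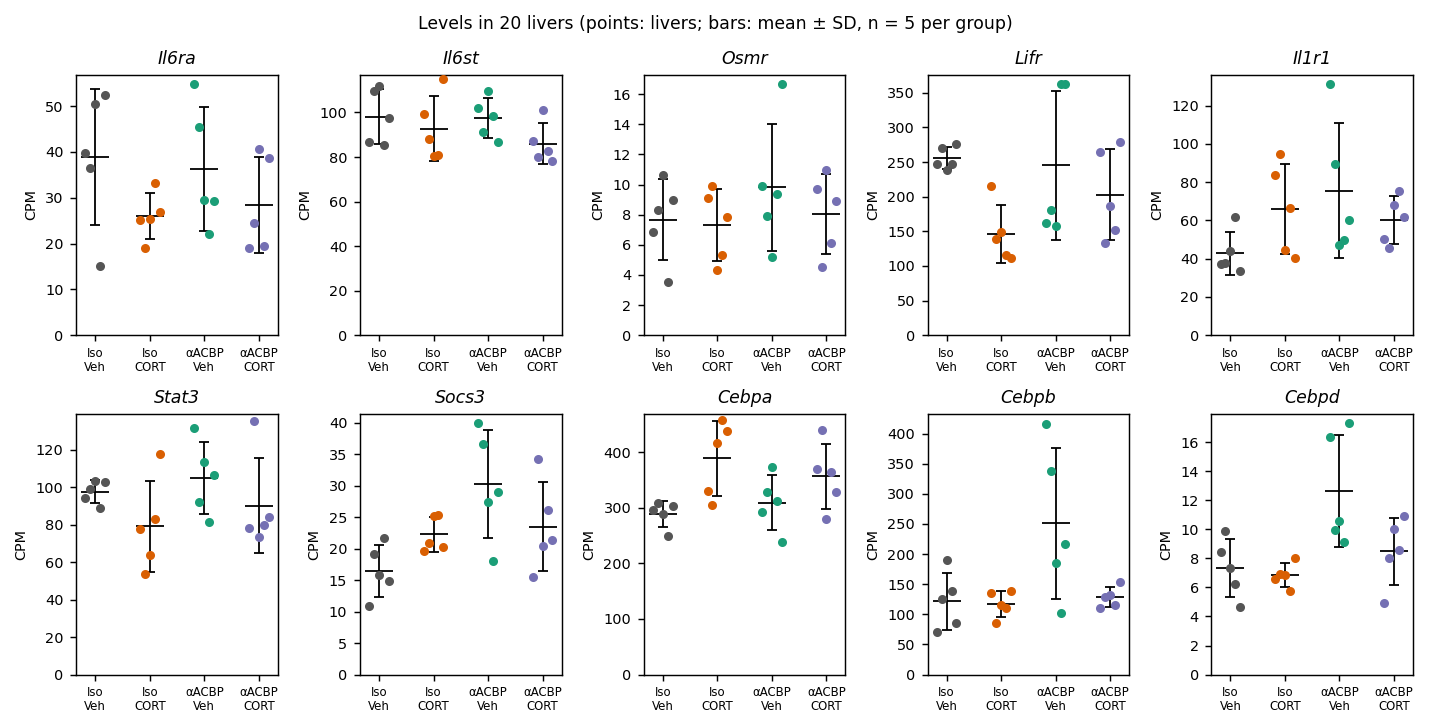
CPM of the 10 members in each of 20 livers by treatment group (points are livers, horizontal bars are means and error bars are ± SD, n = 5 per group, linear axes from 0). Cebpb, Socs3 and Cebpd have their highest means in αACBP + Vehicle, at 251, 30.2 and 12.7 CPM, and Lifr is lowest in Isotype + CORT, at 146 CPM.

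The libraries held 14934926 to 20299999 counts on genes, so that even Osmr, the rarest member, had between 56 and 345 counts in a liver. Hepatocyte markers, 9 of 10 of which could be matched by symbol, summed to 43082 to 151057 CPM and none of them was at 0 in any group. αACBP + Vehicle replicate 5 stood apart with the lowest of these sums, and its mean correlation with its own group over genes was 0.874, the lowest of the 20. In bulk tissue, fewer cells of a type and less RNA per cell cannot be told apart.

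The antibody given without CORT was the only comparison in which a member passed a limit in the fit of all 20 livers. Of 10 members, 1 passed both the adjusted p limit of 0.05 and the log2 fold limit of 1, against 1.30% of all 16071 genes tested, and 2 passed the adjusted p limit alone, against 5.14% of all genes. These were Cebpb and Socs3, both higher with αACBP, as were 0.684% of all genes past both limits and 2.78% past the adjusted p limit. At an unadjusted p under 0.05 the count was 4, with Il1r1 and Cebpd added, against 20.6% of all genes. The median log2 fold change of the members was 0.23, against −0.02 over all genes, with 7 members higher and 3 lower. For no member were all αACBP + Vehicle livers on one side of all Isotype + Vehicle livers, whereas 7.13% of all genes had such separate groups.

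Cebpb, the C/EBP factor induced in acute-phase responses, measured 70.3, 125, 190.0, 139 and 85.3 CPM in the 5 Isotype + Vehicle livers and 415, 337, 185, 101 and 217 CPM in the 5 αACBP + Vehicle livers. Of the treated livers 3 lay above every control liver, and 2, replicates 3 and 4, lay within the control range. The mean was 251 ± 125 CPM against 122 ± 47.3 (SD, n = 5), a log2 fold change of 1.04 ± 0.28 (SE, 95% interval 0.46 to 1.62) with an adjusted p of 0.0324 by edgeR's quasi-likelihood test. The two-sided exact permutation test of the log2 CPM of this gene alone gave p = 0.0714. It passed the adjusted p limit in 4 of 8 other planned fits, with values of 0.83 to 1.06 and adjusted p of 0.00480 to 0.0958 over the 8. The call also rested on single livers. Without αACBP + Vehicle replicate 1 the log2 fold change was 0.78 (edgeR adjusted p = 0.113), and it passed the adjusted p limit in 4 of 10 fits that each left out 1 liver. The 6 in which it did not were those without replicates 1, 2 and 5 of either group, with adjusted p from 0.0672 to 0.113.

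Socs3, the feedback inhibitor of gp130, measured 10.8, 19.1, 15.9, 21.7 and 14.8 CPM in the Isotype + Vehicle livers and 39.98, 36.7, 27.4, 18 and 29.1 CPM with αACBP. Of the 5 treated livers 4 exceeded every control, and replicate 4, the same liver that was lowest for Cebpb, lay inside the control range. The log2 fold change was 0.88 ± 0.23 (SE, 95% interval 0.41 to 1.34), from 16.5 ± 4.16 to 30.2 ± 8.59 CPM (SD, n = 5), with an edgeR adjusted p of 0.0255 and a two-sided exact permutation p of 0.0238. Its size stayed under the log2 fold limit of 1. It passed the adjusted p limit in 8 of 8 other planned fits, with values of 0.80 to 0.91, and in 6 of 10 fits without 1 liver. Without replicate 1 or 5 of Isotype + Vehicle, or replicate 1 or 2 of αACBP + Vehicle, it was 0.75 to 0.84 with an adjusted p of 0.0555 to 0.0929.

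Il1r1, the signaling receptor of interleukin-1, and Cebpd followed in size but did not pass the adjusted p limit in the fit of all 20 livers. Il1r1 measured 37.3, 37.6, 44.1, 61.9 and 33.4 CPM in the Isotype + Vehicle livers and 131, 89.4, 47.4, 49.6 and 60.4 CPM with αACBP, a log2 difference of 0.82 ± 0.27 (edgeR adjusted p = 0.0688). Only αACBP + Vehicle replicates 1 and 2 lay above the control range, and without replicate 1 the difference was 0.52 (adjusted p = 0.247). Il1r1 did pass the adjusted p limit in 3 of 8 other planned fits, where values ran from 0.75 to 0.83, and in 3 of 10 fits without 1 liver, with 0.99 (edgeR adjusted p = 0.0306) without Isotype + Vehicle replicate 4. Cebpd measured 8.43, 9.91, 7.31, 6.26 and 4.68 CPM in the controls and 16.4, 9.96, 10.6, 9.14 and 17.3 CPM with αACBP, a log2 difference of 0.79 ± 0.27 (adjusted p = 0.0819). Here 4 of 5 treated livers exceeded every control, and the highest was replicate 5, not replicates 1 or 2. Cebpd passed in 1 of 8 other planned fits, by DESeq2 (adjusted p = 0.0350), and in 0 of 10 fits without 1 liver. The exact permutation test of single values gave p = 0.0397 for Il1r1 and p = 0.0159 for Cebpd, or 0.297 and 0.265 after adjustment over the 50 tests of 10 members in 5 comparisons.

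The other members, Osmr excepted, had group means close to those of the controls. Il6ra averaged 36.2 ± 13.5 CPM with αACBP and 38.9 ± 14.9 without, a log2 difference of −0.10 (95% interval −0.69 to 0.49). Il6st stood at 97.6 ± 8.97 and 98.2 ± 12.3 CPM, a difference of −0.01 (−0.30 to 0.29), the tightest interval in this comparison. Stat3 measured 131, 92.1, 113, 81.5 and 107 CPM with αACBP against 94.0, 98.9, 103, 88.8 and 103 CPM, and its interval was −0.29 to 0.50. Cebpa differed by 0.10 (−0.24 to 0.43). For Lifr the interval was −0.56 to 0.44. Osmr averaged 9.81 ± 4.24 CPM with αACBP and 7.67 ± 2.70 without, a difference of 0.36 (−0.33 to 1.04). For Osmr a log2 change of up to 1.04 thus lies within the interval. Lifr varied widely within the treated group, at 162, 181, 158, 363 and 364 CPM, with replicates 4 and 5 above and the other 3 below the control range of 238 to 277 CPM.

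**Figure D2:**
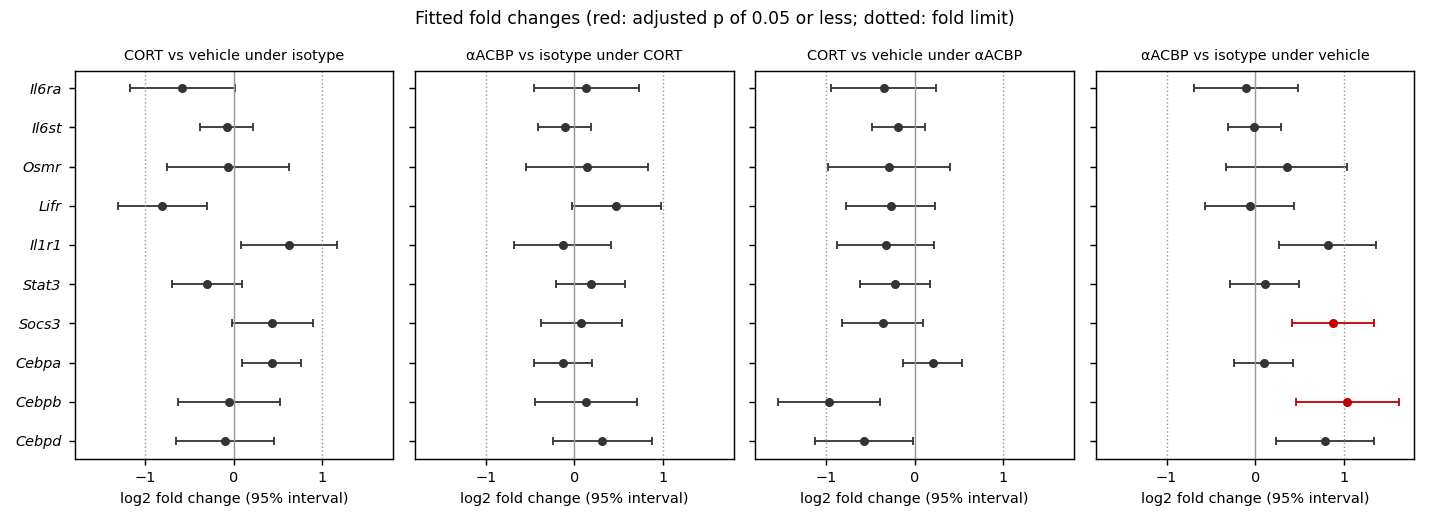
Log2 fold change of each member (points) with its 95% interval (bars) in 4 comparisons of the 4 groups, 5 livers per group, by edgeR. Dotted lines mark the fold limit and red marks an adjusted p of 0.05 or less, which only Socs3 (0.88) and Cebpb (1.04) reached, with αACBP under vehicle.

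The livers of αACBP + Vehicle also differed from those of Isotype + Vehicle in clock genes. A clock-gene index, the mean log2 level of Dbp, Tef, Per3 and Ciart minus that of Arntl, Npas2 and Clock, which peak in opposite phases of the day, was chosen after the data had been seen. It ran from 2.25 to 5.33 in αACBP + Vehicle and from −2.05 to −0.36 in Isotype + Vehicle, so that these groups did not overlap. In Isotype + CORT it ran from −0.72 to 4.11 and in αACBP + CORT from −2.42 to 2.80, both overlapping αACBP + Vehicle. Per1, a gene induced both by the clock and by glucocorticoids, measured 238, 151, 81.0, 38.4 and 63.5 CPM in αACBP + Vehicle, and the livers with the highest Per1, replicates 1 and 2, were also highest for Cebpb, Socs3 and Il1r1. Without both of these livers the log2 difference was 0.45 for Cebpb (edgeR adjusted p = 0.370), 0.58 for Socs3 (0.214) and 0.29 for Il1r1 (0.615). For Cebpd it was 0.75 (0.213). Because these livers were the highest for Cebpb, Socs3 and Il1r1, leaving them out lowers those differences in any case and tests no cause. With the index as a covariate the log2 difference was 0.46 for Cebpb (0.887), 0.83 for Socs3 (0.791), 0.94 for Il1r1 (0.791) and 0.31 for Cebpd (0.936). Because the index separated αACBP + Vehicle from Isotype + Vehicle completely, its part and that of the antibody in these values cannot be told apart. Hepatocyte marker sums ran from 43082 to 101254 CPM in αACBP + Vehicle and from 74431 to 131265 CPM in Isotype + Vehicle, with 0 of 9 markers past the adjusted p limit. Stellate cell markers summed to 408 to 479 CPM in αACBP + Vehicle and 440.2 to 603 CPM in Isotype + Vehicle, with 11 of 12 lower (median −0.42). Of these Dcn, Col3a1 and Lrat passed the adjusted p limit, and none of the 12 was at 0 in either group. The part of hepatocyte and stellate cell markers in the result was not tested.

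**Figure D3:**
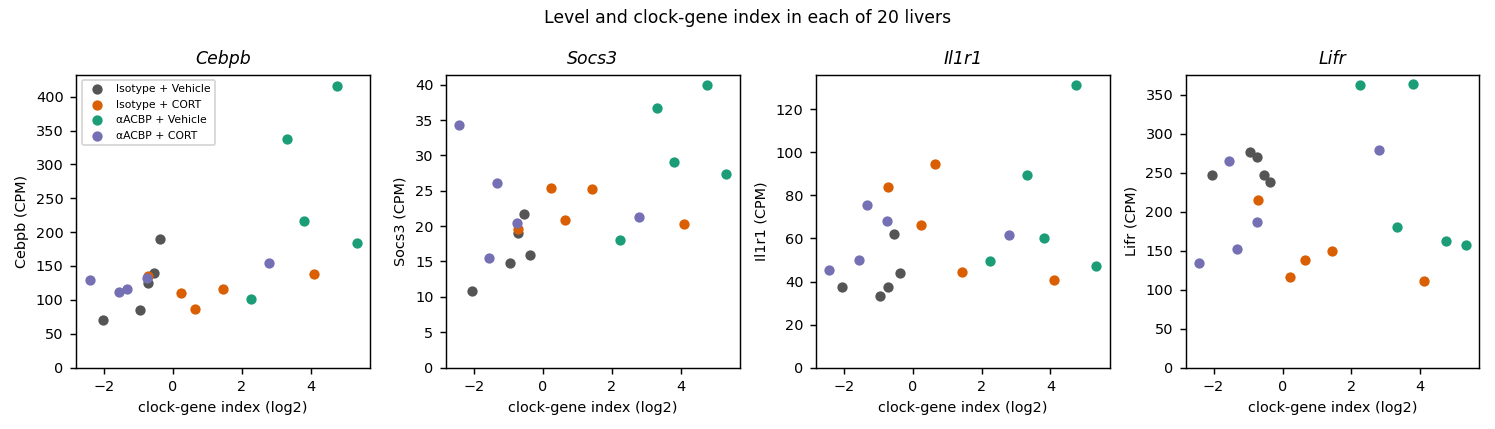
CPM of Cebpb, Socs3, Il1r1 and Lifr (vertical axes, linear from 0) against the clock-gene index (horizontal axes, log2) in 20 livers, colored by group. The αACBP + Vehicle livers lie at 2.25 to 5.33, a range also reached by Isotype + CORT (up to 4.11) and αACBP + CORT (up to 2.80). The Cebpb levels of 337 and 415 CPM fall at index values of 3.31 and 4.75.

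Cebpb lies on chromosome 2 at 167530835 to 167532338 on the plus strand (GRCm39, GENCODE M39), in a single exon of 1504 bases, and 20.7% of these bases overlap the gene Peds1 on the opposite strand, listed in the table as Tmem189. The count setting credited a read to each gene it overlapped, and the strand setting was not given in the sources used here. Tmem189 measured 41.3, 55.1, 85.3, 56.0 and 42.9 CPM in Isotype + Vehicle and 152, 136, 88.7, 56.5 and 76.1 CPM in αACBP + Vehicle, with a log2 fold change of 0.86 (edgeR adjusted p = 0.0255). The control livers stood in the same order for Tmem189 as for Cebpb, and among the treated livers only replicates 3 and 5 changed places. Reads shared by both genes and levels shared by both cannot be told apart here. Socs3 (chromosome 11, 117856905 to 117860898, minus strand) overlaps predicted genes on the other strand over 11.8% of its exon bases. Cebpd (chromosome 16, 15705150 to 15708895, plus strand) overlaps Spidr over 15.03%. Spidr averaged 1.73 to 4.52 CPM in the groups and was lowest in αACBP + Vehicle, where Cebpd was highest. The part of shared reads in the Cebpd values was not tested.

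CORT under the isotype antibody addressed the response to glucocorticoid excess itself. None of the 10 members passed the adjusted p limit, against 3.20% of all genes, or both limits, against 1.94%. At an unadjusted p under 0.05 by edgeR the count was 3 (Lifr, Il1r1 and Cebpa), against 15.6% of all genes. The DESeq2 Wald test and limma-voom also put 0 members past both limits, here and in the comparisons that follow. The median log2 fold change was −0.08, with 3 members higher and 7 lower, against 0.00 over all genes. Among other genes, Fkbp5, a classic glucocorticoid-receptor target, rose from 39.3 ± 9.87 to 128 ± 40.03 CPM (log2 fold change 1.70, edgeR adjusted p = 0.000722).

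Lifr, the receptor chain for leukemia inhibitory factor, was the only member whose groups did not overlap, as was the case for 5.04% of all genes. It measured 248, 270.2, 238, 247 and 277 CPM with vehicle and 216, 138, 149, 116 and 111 CPM with CORT. Every CORT liver lay below every vehicle liver, and replicate 1 was the nearest to them. The log2 fold change was −0.81 ± 0.25 (SE, 95% interval −1.31 to −0.31), from 256 ± 16.5 to 146 ± 41.9 CPM (SD, n = 5). The edgeR adjusted p was 0.0665 and the two-sided exact permutation p was 0.00794, the smallest that 5 against 5 livers can give. It passed the adjusted p limit in 3 of 8 other planned fits, where values ran from −0.90 to −0.81, and in 1 of 10 fits without 1 liver. That was the fit without Isotype + CORT replicate 1, at −1.0 (edgeR adjusted p = 0.0305). Over the 10 fits values ran from −1.0 to −0.73, with adjusted p up to 0.147. An antisense predicted gene, Gm62219, overlaps 11.1% of the Lifr exon bases on chromosome 15 (7120095 to 7226970, plus strand).

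The other members with an unadjusted edgeR p under 0.05 were higher with CORT. Il1r1 measured 83.8, 94.7, 44.5, 66.3 and 40.6 CPM against the 33.4 to 61.9 CPM of the vehicle livers, a log2 difference of 0.62 ± 0.27 (adjusted p = 0.229). Replicates 3 and 5 lay within the vehicle range. Cebpa, the C/EBP factor of the resting hepatocyte, measured 296, 309, 288, 248.6 and 303 CPM with vehicle and 330.1, 306, 416, 458 and 437 CPM with CORT. All but replicate 2 of the CORT livers were above the vehicle range. The log2 difference of 0.43 ± 0.16 had an edgeR adjusted p of 0.157. Its exact permutation p was 0.0159, or 0.265 after adjustment over the 50 tests. Socs3 measured 19.6, 20.9, 25.3, 25.4 and 20.3 CPM with CORT, a difference of 0.44 ± 0.23 (adjusted p = 0.360). Il6ra went the other way, at 25.2, 19.1, 25.3, 33.2 and 26.9 CPM against 39.8, 36.4, 50.4, 15.2 and 52.4 CPM, with a log2 difference of −0.58 ± 0.29 (adjusted p = 0.334). For Il6ra only vehicle replicate 4 fell below the CORT livers, and without it the difference was −0.79.

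Cebpb and Cebpd had group means under CORT close to those with vehicle. Cebpb averaged 117 ± 21.1 CPM, a log2 difference of −0.06 (95% interval −0.63 to 0.52), and Cebpd 6.83 ± 0.833 CPM, a difference of −0.10 (−0.66 to 0.46). Stat3 measured 77.6, 53.9, 63.9, 83.0 and 117 CPM, with 4 of 5 livers below the vehicle range and 1 above it, and its difference was −0.30 (−0.69 to 0.09). Kupffer cell and macrophage markers of these livers also differed. They summed to 171 to 482 CPM in Isotype + CORT and 529 to 1005 CPM in Isotype + Vehicle. Of 12 such markers 8 passed the adjusted p limit, all lower with CORT, none was at 0 in either group, and their part in the member values was not tested. The clock-gene index ran from −0.72 to 4.11 in Isotype + CORT, and with it as a covariate the Lifr difference was −0.74 (adjusted p = 0.158).

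αACBP in CORT-treated mice, the comparison at the center of the study, left the members close together. None passed the adjusted p limit, against 0.958% of all genes, or both limits, against 0.597%, and none reached an unadjusted edgeR p under 0.05, against 12.5% of all genes. The largest difference was that of Lifr, at 265, 134, 186, 152 and 279 CPM with αACBP against 111 to 216 CPM with the isotype (log2 difference 0.48 ± 0.24, adjusted p = 0.438). Replicates 1 and 5 lay above the isotype range and the other 3 within it. Intervals for the rest included 0, with the narrowest for Il6st (−0.41 to 0.19), Cebpa (−0.46 to 0.20) and Stat3 (−0.21 to 0.58). Socs3 measured 15.5, 34.2, 20.4, 26.1 and 21.3 CPM (0.08, −0.38 to 0.54) and Cebpb 111, 129, 132, 116 and 154 CPM (0.13, −0.44 to 0.71). The groups overlapped for all 10 members, whereas 3.22% of all genes did not overlap. Kupffer cell and macrophage markers summed to 640.1 to 879 CPM with αACBP against 171 to 482 CPM, and 4 of 12 passed the adjusted p limit, all higher.

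CORT under αACBP shares its vehicle livers with the comparison of antibodies described first. No member passed the adjusted p limit, against 0.305% of all genes, or both limits, against 0.212%. With CORT 9 of 10 were lower, with a median log2 difference of −0.31, against 0.01 over all genes, 50.5% of which were higher. Regardless of sign, the median difference was 0.31 for the members and 0.31 over all genes. The member differences all rest on the same αACBP + Vehicle livers. Cebpb stood at 128 ± 16.9 CPM with CORT against 251 ± 125 without, a log2 difference of −0.97 ± 0.28 (edgeR adjusted p = 0.134, exact permutation p = 0.0635). The αACBP + CORT values, from 111 to 154 CPM, lay below 4 of the 5 αACBP + Vehicle livers and above the fifth, replicate 4 at 101 CPM. Without that liver the difference was −1.17 (edgeR adjusted p = 0.0359), the 1 of 10 fits without 1 liver that passed the adjusted p limit. Those 10 fits gave −1.17 to −0.71, with adjusted p up to 0.350. By DESeq2 with all livers it was −0.99 (adjusted p = 0.0237), the 1 of 8 other planned fits that passed. Values of the 8 reached −0.72 at the weakest, with adjusted p up to 0.244. Cebpd fitted at −0.57 ± 0.27 (adjusted p = 0.373), from 12.7 ± 3.86 to 8.50 ± 2.31 CPM. These were the 2 members with an unadjusted edgeR p under 0.05, against 12.7% of all genes. The groups overlapped for all 10 members, whereas 2.74% of all genes had separate groups. Cebpa alone was higher, by 0.21 (−0.13 to 0.54).

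No member was shown to differ between the livers that received both treatments and those of Isotype + Vehicle. None passed the adjusted p limit, against 0.0809% of all genes, or both limits, against 0.0684%, and Socs3 alone had an unadjusted edgeR p under 0.05, against 7.59% of all genes, with a log2 difference of 0.51 ± 0.23 (adjusted p = 0.541). Cebpb differed by 0.07 (95% interval −0.50 to 0.65), Stat3 by −0.11 (−0.51 to 0.28) and Il6st by −0.19 (−0.49 to 0.10). Larger differences were fitted for Il1r1 at 0.49 (−0.06 to 1.04), Il6ra at −0.45 (−1.04 to 0.14) and Lifr at −0.33 (−0.83 to 0.17). Cebpa averaged 356 ± 59.0 CPM against 289 ± 23.9, a difference of 0.30 (edgeR adjusted p = 0.734). The groups overlapped for every member, against 3.31% of all genes with separate groups.

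Whether the CORT response itself differed with the antibody was tested as an interaction, the log2 response under αACBP minus that under the isotype. No member passed the adjusted p limit or both limits, against 0.143% of all genes for either. For Il1r1 the interaction was −0.95 ± 0.37 (edgeR adjusted p = 0.320), for Cebpb −0.91 ± 0.40 (0.387) and for Socs3 −0.80 ± 0.32 (0.322). These were the 3 of 10 members with an unadjusted edgeR p under 0.05 (0.0175 to 0.0300), against 10.6% of all genes. With no adjusted p within the limit, the separate responses are not shown to differ. Lifr lay in the other direction at 0.54 ± 0.35 (0.638).

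Transcripts of the ligands were scarce. Il6 had counts in only 3 of 20 livers, at most 15, and Osm in 6 livers, at most 25. Lif, Il11 and Cntf each had counts in 4 livers, at most 10, 8 and 20. These fell under the filter on low counts, and 7 of 13 ligand genes passed it and were tested. Il1a, Il1b and their antagonist Il1rn were counted in all 20 livers, at group means between 4.47 and 7.89 CPM, without passing the adjusted p limit in any comparison. Ctf1 had counts in 19 livers, and Il27 and its partner Ebi3 in 18 each.

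Clcf1, encoding a cytokine that signals through gp130 and Lifr, was the 1 ligand that passed, with αACBP under vehicle. It measured 5.42, 4.96, 9.14, 6.64 and 3.54 CPM in Isotype + Vehicle and 8.93, 10.1, 14.2, 13.5 and 22.2 CPM in αACBP + Vehicle. The groups touched only where control replicate 3 exceeded treated replicate 1. The log2 fold change was 1.22 ± 0.30 (edgeR adjusted p = 0.0195), and the highest liver was replicate 5, the library that stood apart in hepatocyte markers.

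Of 6 tested receptors for related ligands, 1 passed, with CORT under the isotype. Il11ra1, the binding chain for interleukin-11, measured 115, 109, 107, 173 and 92.4 CPM with vehicle and 70.4, 77.0, 58.4, 66.8 and 57.1 CPM with CORT. All CORT livers lay below all vehicle livers, as for Lifr, and the log2 fold change of −0.86 ± 0.18 passed the adjusted p limit (0.00786) but not the fold limit. The median of these 6 receptors was −0.70, against 0.00 over all genes, with 5 lower and 1 higher.

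Few genes of the intracellular machinery between receptor and nucleus passed the test. None of 14 kinases and adaptors (among them Jak1, Jak2, Tyk2 and Myd88), 6 other STAT factors and 10 NF-κB factors and inhibitors passed the adjusted p limit of edgeR in any of the 6 comparisons. At an unadjusted p under 0.05 these lists had 0 to 2, 0 to 3 and 0 to 2 genes in a comparison, against 7.59% to 20.6% of all genes. The count of 3 was of the 6 other STAT factors. With αACBP under CORT all 3 were higher, against 12.5% of all genes in either direction. With αACBP under vehicle 2 were higher and 1 lower, against 20.6%. Of 14 feedback and negative regulators 1 passed, in 1 comparison, namely Cish, an inhibitor best known from STAT5 signaling. It averaged 37.8 ± 16.5 CPM with αACBP under vehicle against 12.3 ± 7.78, a log2 fold change of 1.61 (edgeR adjusted p = 0.0436). Among 8 other C/EBP factors and partners 1 passed, in 1 comparison, namely Cebpe, which rose with CORT under the isotype from 14.6 ± 4.21 to 30.05 ± 10.4 CPM (1.04, adjusted p = 0.00950).

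Among acute-phase and STAT3 target genes, the serum amyloids were higher with the antibody under CORT, where no member passed a limit. Of 29 tested, 4 passed the adjusted p limit with αACBP under CORT, against 0.958% of all genes. All 4 were higher (Saa1, Saa2, Saa3 and Orm2), and the list's median was 0.34, against 0.01 over all genes. Saa1, a serum amyloid that STAT3, C/EBP factors and NF-κB are known to activate, measured 25.2, 38.7, 57.1, 84.4 and 39.4 CPM in Isotype + CORT and 990.4, 1109, 467, 1123 and 938 CPM in αACBP + CORT. Every αACBP + CORT liver lay above every Isotype + CORT liver, with a log2 fold change of 4.24 ± 0.74 (edgeR adjusted p = 0.00949). In the same comparison Cebpb, Socs3 and Stat3 differed by 0.13, 0.08 and 0.19, with adjusted p of 0.936, 0.958 and 0.802. RNA levels do not show the phosphorylation of STAT3, and the part of these regulators in the Saa1 values was not tested. With αACBP under vehicle 5 of 29 passed, against 5.14% of all genes, all higher (Saa1, Saa2, Saa3, Lcn2 and Mt2), with a list median of 0.12. In αACBP + CORT against Isotype + Vehicle 2 of 29 passed both limits, Saa1 and Lcn2, both higher, against 0.0684% of all genes. The list median there was 0.49, against 0.00 over all genes.

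Among the 5 αACBP + Vehicle livers the order of Saa1 was not that of Cebpb or Socs3, which is given as a description. Saa1 measured 1007, 40.3, 662, 1464 and 115 CPM there. The lowest, replicate 2, had the second highest Cebpb (337 CPM) and Socs3 (36.7 CPM), and the highest, replicate 4, had the lowest of both (101 and 18 CPM). Replicate 1, however, was second highest for Saa1 and had the highest Cebpb (415 CPM) and Socs3 (39.98 CPM). With CORT under the isotype 1 of 29 passed, against 3.20% of all genes. This was Lcn2, a lipocalin, which rose from 18.4 ± 3.15 to 309 ± 180 CPM (4.07, edgeR adjusted p = 0.00358). Of 15 glucocorticoid-induced genes 1 passed with CORT under the isotype (Fkbp5), where 8 were higher and 7 lower, with a median of 0.13. With αACBP under vehicle 2 passed, the metallothioneins Mt1 (1.38, edgeR adjusted p = 0.0202) and Mt2 (2.12, 0.00721). There 14 of the 15 were higher and 1 lower, with a median of 0.52.

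**Figure D4:**
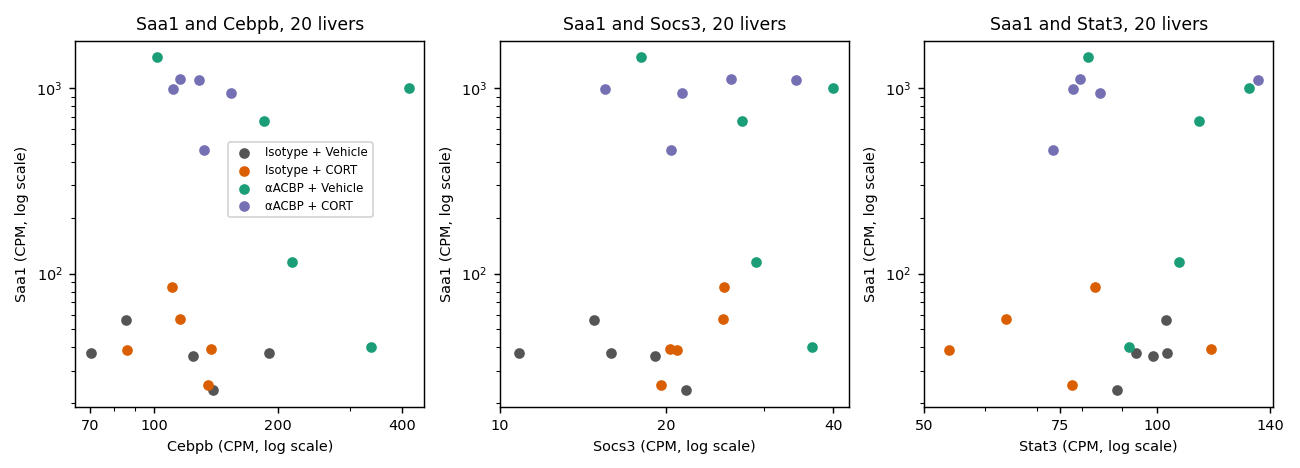
Saa1 (vertical axes, CPM, log scale) against Cebpb, Socs3 and Stat3 (horizontal axes, CPM, log scale) in 20 livers colored by group. The αACBP + CORT livers lie at 467 to 1123 CPM of Saa1 with Cebpb of 111 to 154 CPM, within the range of Isotype + Vehicle (70.3 to 190.0 CPM).

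Pairs of members were then compared over the 20 livers after the mean of each group had been removed, in 6 pairs with 100000 permutations within groups. Socs3 and Cebpb varied together, with Pearson's r = 0.65 (permutation p = 0.00706, adjusted over the 6 pairs 0.0424) and Spearman's rho = 0.51 (permutation p = 0.0400, adjusted 0.240). Without the 2 livers farthest from the median of Socs3, αACBP + Vehicle replicate 4 and αACBP + CORT replicate 2, r was 0.57 (permutation p = 0.0429). Socs3 and Stat3 had r = 0.38 (permutation p = 0.0942), which was −0.05 without the same 2 livers. The pairs of Socs3 with Cebpd, Cebpb with Cebpd, Il6ra with Il6st, and Osmr with Il1r1 had r of 0.27, 0.36, 0.26 and 0.12, with permutation p from 0.188 to 0.662.

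Balances between partners within a liver give the same data in another form, as ratios of counts with no test. Cebpb to Cebpa averaged 0.428 ± 0.180 in Isotype + Vehicle, 0.306 ± 0.0643 in Isotype + CORT, 0.835 ± 0.437 in αACBP + Vehicle and 0.371 ± 0.0923 in αACBP + CORT. Within αACBP + Vehicle it ran from 0.325 to 1.42, the widest range of the 4 groups. Socs3 to Stat3 averaged 0.170 ± 0.05 in Isotype + Vehicle and 0.262 to 0.303 in the other 3 groups. Il6ra to Il6st had group means between 0.286 and 0.392 in all 4 groups, while single livers ran from 0.177 to 0.538.

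The genes whose log2 level was most like each member over the 20 livers, among 8095 genes with a mean of at least 10 CPM, are given as a description, since the livers share groups and libraries. For Cebpb these were Mbd1, Tmem189 and Csrnp1, each at r = 0.89, of which Tmem189 is the overlapping gene. Csrnp1 also came second for Socs3 (0.77), after Plekhg5 (0.81). Il1r1 was closest to Scrib (0.87), Cebpd to Grina (0.84), Cebpa to Tex264 (0.84), Lifr to Slc19a2 (0.78), Osmr to Mtmr1 (0.75) and Il6st to Foxa3 (0.74). Stat3 was closest to Tnfrsf1a (0.75), which encodes a receptor for tumor necrosis factor, and Il6ra, with the weakest partner of all members, to Lpin1 (0.66).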

How the data were processed

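RNA of 20 livers (5 per group) was sequenced as read pairs by the authors, aligned with HISAT2 and counted on genes with HTSeq in union mode, crediting a read to each feature it overlapped. The deposited unit is the raw count per gene. The methods name GRCm39 and the submitters' processing notes name mm10, so gene positions here come from GENCODE M39 by gene ID (91.4% of IDs matched) and promoters from RefSeq. Rows without a gene, kept out of library sizes, included 42.3% to 45.2% of lines in a no-feature row, and 36.6% to 40.4% fell on genes.

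Counts were tested with edgeR 4.0.16 (TMM, filterByExpr, robust quasi-likelihood fit of all 20 livers, contrasts, Benjamini-Hochberg over 16071 genes) in R 4.3.3. CPM use TMM-adjusted library sizes. A gene was called at an adjusted p of at most 0.05 with a log2 fold change of 1 or more in either direction. Single values were tested by two-sided exact permutation of log2 CPM (prior count 2). The alternatives were DESeq2 1.42.0, limma-voom 3.58.1 with quality weights, other size factors and filters, the compared groups alone, a replicate block and each liver left out. On simulated data for CORT under the isotype (15407 genes), 55.5% of 200 changed genes were recovered, 75.0% of those at a log2 change of 3 and 28.6% at 1, with 5.13% false calls.

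The members and all gene lists were chosen with earlier results of these data known. Named genes were the members, listed genes that passed (at most 3 of smallest adjusted p per list and comparison), ligands, and the 3 genes most like each member. A single ligand gene is not reported here. Il11ra1, Orm2, Tmem189, Spidr, Per1 and genes that passed the adjusted p limit alone were named after their values were seen. Same-numbered livers of different groups are separate mice, and p-values measure the spread between mice.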

Additional observations from a re-analysis of the deposited data

Results flagged for a closer look

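Stat3 in αACBP + CORT was marked by 1 liver far from the others in its group of 5. Replicate 2 measured 135 CPM, while the nearest other liver measured 84.3 CPM and the lowest 73.5 CPM, so that the gap made up 0.825 of the group's range against a critical value of 0.71 (Dixon's test). The same liver had the highest Socs3 (34.2 CPM) and the highest Cebpa (439.9 CPM) of its group. Of 40 groups of 5 livers examined over the members this was the 1 found, and chance alone marks about 1 in 20. Its cause was not tested.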

How the results depend on the processing

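Of 660 values of the members under settings other than leaving out a single liver, 638 kept their direction and their call on both limits jointly, and of 700 values without 1 liver 662 did. Changes at the adjusted p limit alone are not in these counts and stand beside Cebpb, Socs3, Il1r1, Cebpd and Lifr. Same-numbered livers did not deviate together (r from −0.10 to 0.10 over 30 pairs, 0 above 0.1), so replicate numbers were not treated as a pairing. With a replicate block Cebpb with αACBP under vehicle was 1.00 (adjusted p = 0.0777), and the block changed no other call of a member. The count of members called in that comparison, 1, was 2 without the fold limit and 0 without a low-count filter, with the block, with the groups compared alone, with voom, with the clock-gene index (an alternative chosen after seeing the data, as was leaving out 2 livers) and without αACBP + Vehicle replicates 1 and 2. Cebpb there was 1.03, 1.04, 0.83, 0.46 and 0.45 under the last 5 in the order filter, groups alone, voom, index and 2 livers. Depth gave every member at least 56 counts in each liver, while ligand genes such as Il6 and Osm were too scarce to test.

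Genes called moved with the setting. For CORT under the isotype (312) they were 514 without the fold limit, 890 at unadjusted p with the fold limit kept and 527 by DESeq2. For αACBP under CORT (96) they were 154, 520 and 211 in that order, 27 with the groups alone and 57 by voom. For CORT under αACBP (34) they were 395 at unadjusted p, 112 by DESeq2, 155 by voom and 0 with the index. For αACBP under vehicle (209) they were 826 without the fold limit, 537 at unadjusted p, 0 with the index and 81 without the 2 livers. For both treatments against neither (11) they were 223 at unadjusted p, 62 with the groups alone, 56 by DESeq2, 150 by voom and 17 with the index. For the interaction (23) they were 791 at unadjusted p, 35 with DESeq2 size factors, 53 without a filter, 60 with 10 counts in every liver, 41 with library sizes without the 20 most abundant genes, 187 by DESeq2, 49 by voom and 0 with the index. Without 1 liver these counts ran from 205 to 421, 52 to 191, 5 to 153, 87 to 343, 1 to 23 and 6 to 101, and members called from 0 to 1 for CORT under αACBP, 0 to 2 for αACBP under vehicle and 0 elsewhere. The cause was not tested.

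None of the values whose sign turned had passed a limit in the fit of all 20 livers. With αACBP under vehicle, Il6st was 0.0032 with DESeq2 size factors, 0.0088 with 10 counts in every liver and 0.0030 by DESeq2, Osmr −0.013 by voom, Lifr 0.11 and Stat3 −0.15 with the index, and Lifr 0.20 without the 2 livers. By voom Cebpb was 0.022 for CORT under the isotype, Il6ra −0.15 for αACBP under CORT, and Osmr −0.17 for both treatments and 0.20 for the interaction. With the index Il6ra was 0.081 and Stat3 0.034 for CORT under αACBP, and Il6st 0.14 and Cebpd 0.17 for the interaction. The correlation of Socs3 and Stat3 was −0.050 without 2 livers. Without 1 liver, values spanned 0 as follows. For CORT under the isotype Osmr ran from −0.25 to 0.069, Cebpb from −0.20 to 0.15 and Cebpd from −0.23 to 0.026. For αACBP under vehicle Il6ra ran from −0.31 to 0.031, Il6st from −0.055 to 0.039 and Lifr from −0.25 to 0.060. For both treatments Osmr ran from −0.12 to 0.22 and Cebpb from −0.070 to 0.29, and for the interaction Osmr from −0.37 to 0.082 and Stat3 from −0.11 to 0.27. For αACBP under CORT Il6ra ran from −0.029 to 0.25, Osmr from −0.0013 to 0.29, Il1r1 from −0.27 to 0.039, Stat3 from −0.0052 to 0.37 and Socs3 from −0.094 to 0.20.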
